A study of Mus musculus with 36 samples.

Results

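The carbonic anhydrase genes of the mouse were followed by RNA-seq through heart, kidney and liver at 3 ages. The 10 genes described are Car1, Car2, Car3, Car4, Car5a, Car8, Car12, Car13, Car14 and Car15. They were taken by gene symbol, and all 10 were present among the 78239 genes counted in each library. A further 6 genes of the family (Car5b, Car6, Car7, Car9, Car10 and Car11) were kept only as a comparison.

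The tissues came from male C57BL/6NCrl mice bought from Charles River at 6 weeks of age and killed at 8, 10 or 12 weeks after ketamine and xylazine anaesthesia, and all groups were wild type on standard chow. Each of the 9 combinations of tissue and age held 4 libraries, 36 in all. Age and the day of collection cannot be told apart. Only males were studied, which bears on genes whose level depends on sex. Between 21031599 and 33637390 read pairs were counted to genes in each library.

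Carbonic anhydrases interconvert carbon dioxide and bicarbonate, releasing or taking up a proton, and most of them use a zinc ion held by histidine side chains. The members differ mainly in where they work. Car1, Car2, Car3 and Car13 are cytosolic, Car5a is mitochondrial, Car4 and Car15 are tethered to the outer face of the plasma membrane by a lipid anchor, and Car12 and Car14 cross the membrane with the active site outside the cell. In kidney these enzymes serve bicarbonate reclamation and acid secretion, in liver the mitochondrial enzyme provides bicarbonate for urea and glucose synthesis, and in heart they take part in handling the acid and carbon dioxide of muscle work.

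The zinc site bears on catalysis, and it is shown for each gene below, grouped as cytosolic, mitochondrial, lipid-anchored, transmembrane and last Car8. Each line is a stretch of coding sequence read from the canonical transcript, 5′ to 3′, with the codons of the first pair of zinc-holding residues in capitals.
Car1: actcagttcCATtttCACtggggcaac
Car2: atccagtttCACtttCACtggggctca
Car3: cgccaattcCATcttCACtggggctcc
Car13: cggcagttcCATttgCACtgggggtca
Car5a: aagcagtttCATttcCACtggggagca
Car4: gtacagttgCACctgCACtggtcaaat
Car15: ctgcagctgCACttcCACtggggcagc
Car12: gagcagctgCACttgCACtgggggaac
Car14: gcccagctcCACctgCACtggggtcag
Car8: tatgaagttAGAtttCACtggggaaga
The search that placed the stretch allowed histidine or arginine at the first position and only histidine at the second. In 9 members both capital codons were CAT or CAC, which encode histidine. In Car8 the first was AGA, an arginine codon. Car8 is known as a family member without classical catalytic activity that binds the inositol trisphosphate receptor, so its transcript level is not a level of enzyme.

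In the GRCm39 build, 4 of the cytosolic members lay side by side on chromosome 3 within 260.786 kb. Car13 (ENSMUSG00000027555) spanned chr3:14706783-14728077, Car1 (ENSMUSG00000027556) chr3:14831269-14873459, Car3 (ENSMUSG00000027559) chr3:14928489-14937595 and Car2 (ENSMUSG00000027562) chr3:14951317-14967568. Car1 was on the minus strand and the other 3 were on the plus strand. Only 13.721 kb separated the end of Car3 from the start of Car2. Car14 (ENSMUSG00000038526) lay farther along the same chromosome at chr3:95805079-95812646, minus strand. The remaining members were scattered, with Car8 (ENSMUSG00000041261) at chr4:8141533-8239088, minus strand, Car5a (ENSMUSG00000025317) at chr8:122642141-122671647, minus strand, Car12 (ENSMUSG00000032373) at chr9:66615426-66674186, plus strand, Car4 (ENSMUSG00000000805) at chr11:84848020-84856879, plus strand, and Car15 (ENSMUSG00000090236) at chr16:17653140-17656228, minus strand.

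The sequences just upstream of the neighbours Car2 and Car3 are shown because these genes, so close together, had opposite patterns in kidney and liver. Each is the 250 bases before the start of the canonical transcript, plus strand, 5′ to 3′, with CG pairs in capitals, at chr3:14951077-14951326 for Car2 and chr3:14928239-14928488 for Car3.
Car2: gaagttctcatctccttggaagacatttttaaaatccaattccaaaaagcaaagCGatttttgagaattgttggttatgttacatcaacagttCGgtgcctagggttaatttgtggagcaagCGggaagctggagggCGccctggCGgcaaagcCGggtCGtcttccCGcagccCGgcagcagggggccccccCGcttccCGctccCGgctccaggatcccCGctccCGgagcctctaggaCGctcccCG
Car3: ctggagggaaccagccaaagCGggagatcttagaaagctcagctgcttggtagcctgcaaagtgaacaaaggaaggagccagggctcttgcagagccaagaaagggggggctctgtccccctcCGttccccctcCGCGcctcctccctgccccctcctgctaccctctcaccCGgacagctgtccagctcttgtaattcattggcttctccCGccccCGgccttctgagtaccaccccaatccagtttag
The Car2 window held 16 CG pairs and 57.6% G or C, and 77.3% of 21757 protein-coding genes had as few CG pairs or fewer. The Car3 window held 7 CG pairs, below the median of 8 over those genes, with 60.4% G or C. The letters TATAAA, searched on both strands, were in neither window, and 11.9% of the genes had them. Among the members they occurred in Car1 alone, starting 32 bases before its transcript start.

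Levels below are CPM, counts scaled to a common library size and corrected for library composition, which serve to compare 1 gene between libraries. Comparisons between genes use counts per kilobase of exon, scaled so that each library has the same total. Counts did not use strand, and several members share exon bases with other genes. Car5a shared 29.6% of its exon bases with an antisense non-coding gene, Car14 shared 14.9% with Aph1a and Car15 shared 65.7% with a gene on its own strand. A fragment that falls on both genes is left out of both in such counting, and the total of the stranded counts, which assign such fragments to the gene on the strand they match, was 1.94 times the count of Car5a in liver and 1.42 times that of Car14 in heart. As the libraries do not mark strand, reads of such partners cannot be told apart and these levels are uncertain to that extent, that of Car15 most of all.

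Each labelled tissue carried its own defining markers. Summed heart markers were 47656 CPM or more in heart and at most 3.64 elsewhere, and summed kidney markers were 18478 CPM or more in kidney and at most 6.44 elsewhere. Summed liver markers were 96224 CPM or more in liver, 15.4 to 60.2 in kidney and 0.96 to 24.8 in heart, where 3 libraries stood above the rest. These were the 10-week replicates 2 and 4 and the 12-week replicate 4, with the liver transcript Alb at 11.1, 16.03 and 2.78 CPM against at most 0.371 in the other 9. They are named again beside the results they touch.

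A different member led in each tissue. Per kilobase of exon, Car14 made up 73.5% of the summed carbonic anhydrase level in heart, Car2 made up 40.0% in kidney and Car3 made up 93.9% in liver (means over 12 libraries each). Kidney drew on 4 members, with Car4 at 21.2%, Car12 at 17.8% and Car14 at 16.9% after Car2. In heart Car4 followed at 18.2%, Car8 at 3.87% and Car2 at 2.99%. In liver Car5a followed at 3.06%, Car14 at 1.62% and Car8 at 0.966%. Within kidney the per-kilobase ranges of Car4, Car12 and Car14 overlapped, as did those of Car8 and Car2 in heart, while Car2 in kidney, Car14 in heart and Car3 in liver stood clear of all other members. With the canonical transcript as the length the leading members were the same, the share of Car14 in heart was 60.7%, and Car8 was above Car5a in liver (2.16% and 1.87%).

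**Figure D1:**
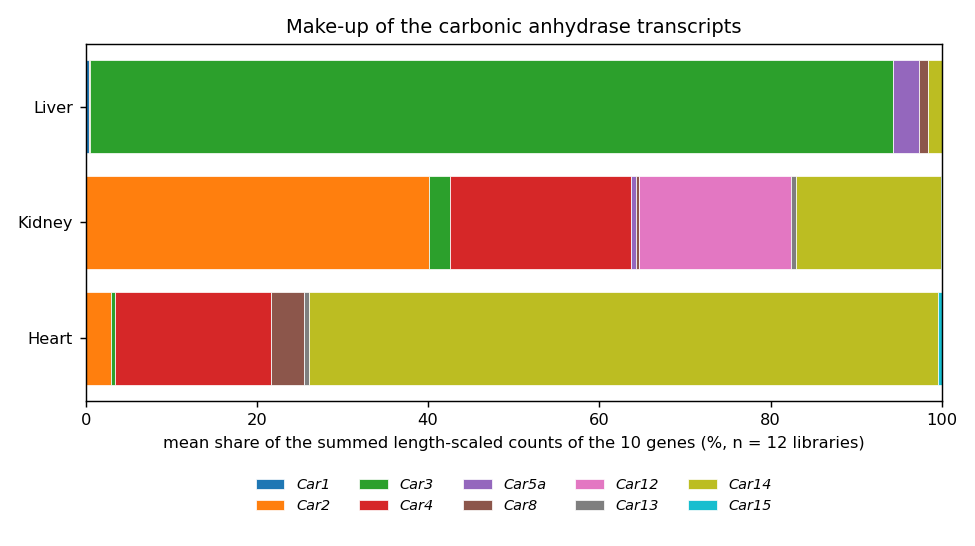
Share of the summed carbonic anhydrase level, in percent of counts per kilobase of exon, held by each member, as means over the 12 libraries of each tissue, drawn as stacked bars. Car14 led in heart at 73.5%, Car2 in kidney at 40.0% and Car3 in liver at 93.9%.

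The summed level of the 10 members was far higher in liver than elsewhere and differed there with age. In liver it was 1565 ± 368 on this scale at 8 weeks, 2534 ± 741 at 10 weeks and 3763 ± 550.1 at 12 weeks (SD, n = 4). Without Car3 the liver sum was 132 ± 13.1, 139 ± 30.5 and 150.2 ± 9.39, so Car3 accounted for nearly the whole of the difference. The kidney sum was 780.2 ± 43.3, 700.1 ± 19.1 and 726 ± 29.2, and the heart sum 112.95 ± 8.89, 99.4 ± 17.2 and 119 ± 25.9.

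Across tissues nearly every member that could be tested differed, as did most genes of the genome. In edgeR's quasi-likelihood test over all 36 libraries, 8 of the 10 members passed an adjusted p of 0.05 between kidney and heart, against 86.1% of the 19716 genes tested. Of these 6 were higher and 2 lower in kidney, against 47.1% and 39.0% of genes. Between liver and heart 8 of 10 passed, against 84.2% of genes, 4 in each direction (42.2% of genes higher in liver and 42.0% lower). Car12, at 0 in both of these tissues, could not differ between them, which left 9 members. Between kidney and liver all 10 passed, against 83.1% of genes, with 6 higher and 4 lower in kidney (46.0% and 37.0% of genes). These shares are close to those of genes at large. As these are bulk tissues, fewer cells of a type and less RNA per cell cannot be told apart.

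Among the cytosolic members, Car2 was a kidney transcript. It ranged from 233 to 285 CPM in kidney, with a median of 265, against 4.42 to 7.42 in heart and 3.42 to 5.67 in liver. The log2 difference of kidney from heart was 5.59 (SE 0.074, edgeR adjusted p = 5.37e-36) and of kidney from liver 5.90. Car2 is the fast cytosolic enzyme of red cells, osteoclasts and acid-secreting kidney cells. Heart and liver were close, with overlapping ranges and a log2 difference of -0.32 (SE 0.075, edgeR adjusted p = 0.000233).

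Car3, the slow cytosolic enzyme known from skeletal muscle, fat and the liver of male rodents, had the opposite pattern. It ranged from 1202 to 4720.1 CPM in liver, from 4.04 to 21.4 in kidney and from 0 to 1.81 in heart, with no overlap between tissues. On the log2 scale the difference of liver from heart was 12.43 (SE 0.32), that of kidney from heart 4.67 (SE 0.29) and that of kidney from liver -7.76 (SE 0.24). So the neighbours on chromosome 3 were ordered in reverse in the organs, with Car2 higher in kidney than in liver and Car3 higher in liver than in kidney.

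The other members of that cluster were low. Car1, an enzyme of red cells and gut, had 3.17 to 7.83 CPM in liver, 6 counts in all in kidney and 3 counts in all in heart. The 3 heart counts lay in 1 library, the 12-week replicate 3, which also held the only 2 heart counts of Car5a. The ratio of liver to heart for Car1 was 514 (95% interval 176 to 2498, counting error only). Car13 reached 1.48 to 2.51 CPM in kidney, above its ranges of 0.184 to 1.13 in heart and 0.122 to 1.21 in liver, with log2 differences of kidney from heart of 1.80 (SE 0.23, edgeR adjusted p = 7.92e-09) and from liver of 1.96 (SE 0.24, edgeR adjusted p = 3.31e-09).

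The mitochondrial member Car5a was largely a liver transcript. It ranged from 29.5 to 64.6 CPM in liver and from 1.07 to 2.21 in kidney, a log2 difference of kidney from liver of -4.86 (SE 0.12). In heart 2 counts were seen in all, and the liver to heart ratio was 7273 with a 95% interval of 2013 to 60065 for counting error only. Car5b, the other mitochondrial gene and no member of the set, was by contrast highest in kidney, at 63.8 to 80.7 CPM.

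Car12, a membrane-spanning enzyme of kidney epithelium, was the most restricted member. It ranged from 205 to 244 CPM in kidney and was at 0 in all 24 heart and liver libraries. Set against a floor of 3 counts over the 12 libraries of a tissue, kidney was at least 21477-fold higher than heart and at least 18676-fold higher than liver. Car4, the anchored enzyme of the proximal tubule and of capillary walls, ranged from 84.7 to 137 CPM in kidney and from 17.3 to 38.0 in heart, and liver held 2 counts in 1 library. Kidney exceeded heart by 2.03 on the log2 scale (SE 0.094, edgeR adjusted p = 7.18e-18), and heart exceeded liver 3340-fold (95% interval 924 to 27582, counting error only).

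Car14 was present at 32.9 CPM or more in every library. It ranged from 75.3 to 144 CPM in heart, 57.4 to 112 in kidney and 32.9 to 53.9 in liver. Heart and kidney overlapped and had a log2 difference of kidney from heart of -0.32 (SE 0.098, edgeR adjusted p = 0.00341), while both were above liver, with differences of -1.29 for liver from heart (SE 0.10, edgeR adjusted p = 6.13e-14) and 0.98 for kidney from liver (SE 0.10, edgeR adjusted p = 7.85e-11). Car15 stayed below 0.65 CPM everywhere.

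Car8 was highest in liver, at 81.8 to 165 CPM, followed by heart at 15.97 to 29.4 and kidney at 4.14 to 15.1, with no overlap. The log2 difference of liver from heart was 2.30 (SE 0.11) and that of kidney from liver -3.99 (SE 0.12). In liver its CPM was above that of Car5a, but per kilobase of all its exons it was below.

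**Figure D2:**
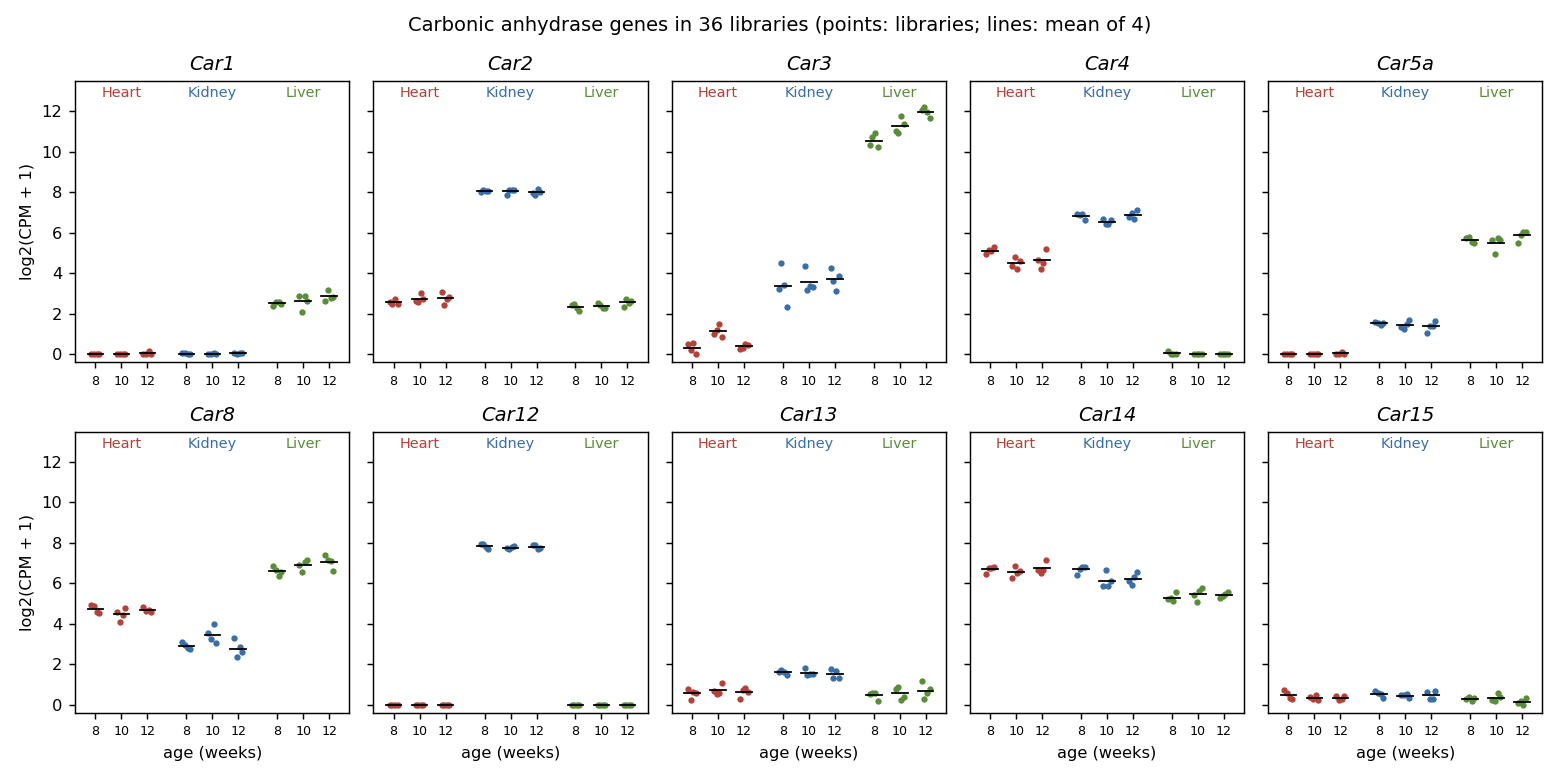
Level of each member in each of the 36 libraries, as log2(CPM + 1), with a panel for each gene, points coloured by tissue and set out by age in weeks, and a line at the mean of 4 libraries. Car12 was at 0 outside kidney, Car3 spanned 0 to 4720.1 CPM between tissues, and Car14 stayed between 32.9 and 144 CPM in every library.

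Age was the study's main variable, and within the tissues only Car3 passed the test. Each tissue was fitted alone, with 6 members passing the filter on low counts in heart, 9 in kidney and 7 in liver. The members too low to test were Car1, Car5a, Car12 and Car15 in heart, Car1 in kidney and Car4, Car12 and Car15 in liver. The comparisons of 10 and 12 weeks with 8 weeks share the same 8-week libraries. Differences are given below as log2 values of the older against the younger age. An unadjusted p under 0.05 was common over all genes. In heart 3544, 2386 and 1776 of 15137 genes had one between 12 and 8, 10 and 8, and 12 and 10 weeks. In kidney 2059, 2917 and 2894 of 17649 genes did, and in liver 2221, 2100 and 2073 of 14672.

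In liver Car3 was higher at 12 than at 8 weeks. The 8-week replicates 1 to 4 had 1274, 1719, 1931 and 1202 CPM. The 10-week replicates had 2066, 1952, 3511 and 2632 CPM. The 12-week replicates had 4244, 4720.1, 4028 and 3248 CPM. Every 12-week library lay above every 8-week library, and the 10-week libraries lay above those of 8 weeks (9.47% of genes did not overlap there) while overlapping those of 12 weeks. The group means were 1532 ± 351, 2540.0 ± 712 and 4059.8 ± 614 CPM (SD, n = 4).

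The difference of 12 from 8 weeks was 1.40 (SE 0.20, edgeR adjusted p = 0.0207). Car3 was the 1 member of 7 past the threshold, where 0.239% of 14672 genes passed and 7.95% had groups that did not overlap. The 10-week step was 0.72 (SE 0.20, edgeR adjusted p = 0.153) and the step from 10 to 12 weeks 0.67 (SE 0.20, edgeR adjusted p = 0.160), so neither passed alone. In those comparisons 0 of 7 members passed by edgeR, against 0.0204% and 0.0545% of genes, with Car3 the only member at an unadjusted p under 0.05 in each, and DESeq2 called Car3 in both while limma-voom called none. When each of the 12 liver libraries was left out in turn, the difference between 12 and 8 weeks stayed between 1.30 and 1.54. Its adjusted p ran from 0.0099 to 0.0837 and passed in 8 of the 12 fits, being lost without the 8-week replicate 2 or any of the 12-week replicates 1, 2 and 3.

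**Figure D3:**
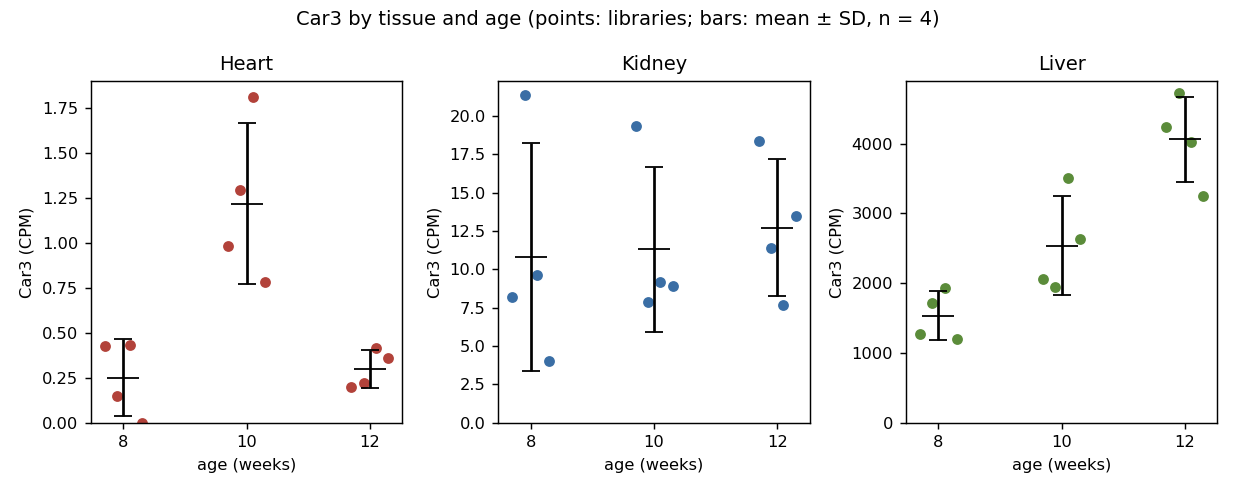
Car3 level in CPM by age in heart, kidney and liver, with a point for each library and a bar for the mean and SD of 4 libraries. In liver the 12-week libraries (3248 to 4720.1 CPM) all lie above the 8-week libraries (1202 to 1931 CPM), while kidney shows no step with age and heart is high only at 10 weeks.

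The other 6 tested liver members did not pass. With Car3 included, 7 of 7 had a 12-against-8-week value above 0 and the median was 0.42, beside a median of -0.00 over all genes. Car8 had 0.46 (SE 0.16, edgeR adjusted p = 0.230), with 97.9 ± 13.7, 122 ± 21.5 and 135 ± 27.9 CPM at 8, 10 and 12 weeks (SD, n = 4). Car1 had 0.42 (SE 0.21, edgeR adjusted p = 0.360), with 4.22 to 4.94 CPM at 8 weeks and 5.25 to 7.83 at 12 weeks, ranges that did not overlap. Car5a had 48.9 ± 4.67, 45.3 ± 10.6 and 57.7 ± 9.33 CPM, and its groups overlapped.

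Car3 is known in rodents as a liver transcript that follows the male pattern of growth hormone release. A list of 10 liver genes with that pattern, without Car3, gave 1 gene past the threshold between 12 and 8 weeks, Susd4, with 1.02 (SE 0.16, edgeR adjusted p = 0.0294), and 9 of the 10 were above 0, with a median of 0.45. The summed level of the list overlapped between ages. It was 28727 to 40208 CPM at 8 weeks, 31797 to 42262 at 10 weeks and 27091 to 36907 at 12 weeks. The lowest sum was in the 12-week replicate 1, where Car3 was 4244 CPM. Across the 12 liver libraries the level of Car3 and the mean of that list had Pearson's r = 0.65 (permutation p = 0.0250, adjusted over 15 relations 0.176) and Spearman's rho = 0.72 (permutation p = 0.0108, adjusted 0.162). With the 2 libraries farthest from the median left out r was 0.50. Within ages, with the age means removed, r was 0.38 (permutation p = 0.231). The relation did not pass the correction, and its part in the Car3 difference was not tested.

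Markers of other cells and zones were also set beside liver Car3, and neither relation passed the correction. Pericentral hepatocytes are those around the central vein, and the summed level of 10 pericentral markers was 12661 to 13958 CPM at 8 weeks, 10761 to 14350.4 at 10 weeks and 15294 to 18555 at 12 weeks, so that the 12-week libraries lay above all others. Of these 10 genes 8 were above 0 and 0 passed between 12 and 8 weeks by edgeR, with 4 at an unadjusted p under 0.05. Car3 and the pericentral markers had r = 0.50 (permutation p = 0.104, adjusted over 15 relations 0.195) and rho = 0.30 (permutation p = 0.340), with r = 0.14 without the 2 farthest libraries and 0.033 with the age means removed. The sum of 10 adipocyte markers was 7.03 to 12.9 CPM at 8 weeks, 7.38 to 13.2 at 10 weeks and 12.1 to 35.8 at 12 weeks. It was highest, at 35.8 and 27.6 CPM, in the 12-week replicates 1 and 2, the libraries with the most Car3. Pparg reached 22.1 CPM and Cidec 12.8 CPM in liver, and 0 of the 3 markers that could be tested passed between 12 and 8 weeks by edgeR. Lep was at 0 in all liver libraries, and Adipoq, Plin1, Retn, Ucp1 and Cidea were each at most 0.104 CPM. Car3 and the 3 tested adipocyte markers had r = 0.49 (permutation p = 0.104, adjusted 0.195) and rho = 0.40 (permutation p = 0.199), with r = 0.0027 without the 2 farthest libraries. The part of these markers in the Car3 difference was not tested.

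In heart Car3 was close to the limit of counting and differed at 10 weeks. The 8-week replicates 1 to 4 held 10, 4, 9 and 0 counts, or 0.427, 0.147, 0.433 and 0 CPM. The 10-week replicates held 24, 26, 44 and 18 counts, or 0.983, 1.29, 1.81 and 0.784 CPM. The 12-week replicates held 4, 6, 12 and 9 counts, or 0.197, 0.223, 0.413 and 0.358 CPM. All 4 libraries of 10 weeks were above all 8 of the other ages and far below every liver library. Between 12 and 10 weeks 6.08% of genes had groups that did not overlap.

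The difference of 10 from 8 weeks was 2.30 (SE 0.51, edgeR adjusted p = 0.0413), and Car3 was the 1 of 6 members past the threshold where 1.06% of 15137 genes passed and 9.73% had groups that did not overlap. The 12-against-10-week difference was -1.995 (SE 0.49, edgeR adjusted p = 0.227), and 0 of 6 members passed there by edgeR, DESeq2 or limma-voom, against 0.0396% of genes, with Car3 the only member at an unadjusted p under 0.05. Leaving out each of the 12 heart libraries kept the 10-week difference between 1.88 and 2.703, but the adjusted p passed in only 5 of the 12 fits (range 0.026 to 0.138). It was lost without any of the 8-week replicates 2, 3 and 4, the 10-week replicates 1, 3 and 4 and the 12-week replicate 3. It was also lost, at 0.0697, in a fit of these 2 ages alone.

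Some heart libraries also held liver transcripts. The hepatocyte gene Cyp2e1 was also higher in heart at 10 than at 8 weeks, by 3.43 (SE 0.50, edgeR adjusted p = 0.0031), and 2 of the 3 heart libraries with raised Alb were of 10 weeks. In the 10-week replicates 1 and 3 Alb was 0.082 CPM in each and Car3 was 0.983 and 1.81 CPM. In the 10-week replicates 2 and 4 Alb was 11.1 and 16.03 CPM and Car3 was 1.29 and 0.784 CPM. Without the 3 libraries with Alb above 1 CPM, left out after the values were seen, the Car3 difference was 2.49 (edgeR adjusted p = 0.0479). At 10 weeks that fit keeps only replicates 1 and 3, and it called 215 genes higher and 130 lower of 15259. The part of liver transcripts in the result was not tested further.

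**Figure D4:**
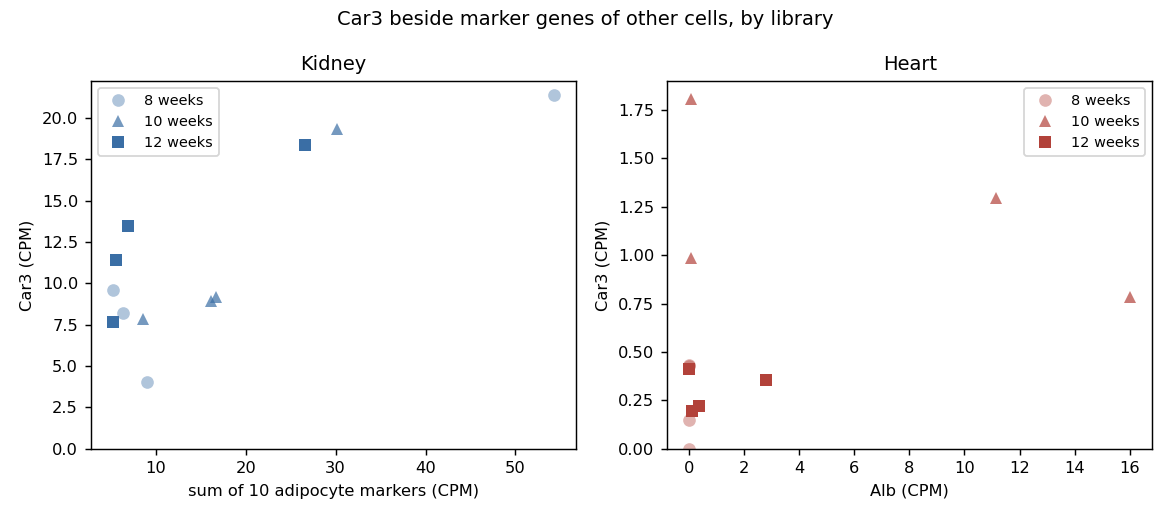
Car3 level (vertical) against the level of transcripts of another cell type (horizontal), both in CPM, 1 point per library shaped by age, with the summed adipocyte markers in kidney and Alb in heart. The 2 heart libraries with 11.1 and 16.03 CPM of Alb do not include the library with the most Car3 (1.81 CPM), while the 3 kidney libraries with the highest adipocyte sums (26.6 to 54.3 CPM) have the most Car3 (18.4 to 21.4 CPM).

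Kidney Car3 showed no difference with age but a wide spread within ages. The 8-week replicates 1 to 4 had 8.21, 21.4, 9.61 and 4.04 CPM. The 10-week replicates had 19.3, 7.84, 9.15 and 8.93 CPM. The 12-week replicates had 18.4, 11.4, 7.68 and 13.4 CPM. The libraries highest at 8, 10 and 12 weeks had 21.4, 19.3 and 18.4 CPM. These 3 were also the libraries with the highest summed adipocyte markers, at 54.3, 30.2 and 26.6 CPM against 5.19 to 16.7 in the other 9, and with Ucp1, a gene of brown fat, at 16.2, 3.33 and 6.37 CPM.

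Ucp1 was also raised, at 3.43 CPM, in the 10-week replicate 4, where Car3 was 8.93 CPM, and was 2.20 CPM in the 10-week replicate 3, where Car3 was 9.15 CPM. Adipocytes are a known site of Car3, and each of the 10 adipocyte markers had counts in some kidney library, while Adipoq, Ucp1, Cidea, Cfd, Lep and Retn were at 0 in at least 1. Over the 12 kidney libraries Car3 and the 9 tested adipocyte markers had r = 0.60 (permutation p = 0.0378, adjusted over 15 relations 0.176) and rho = 0.52 (permutation p = 0.0892, adjusted 0.334). With the 2 farthest libraries left out r was 0.29, so the relation rests on them, and with the age means removed it was 0.71 (permutation p = 0.00992, adjusted 0.149). In heart the relation, over 4 tested markers, had r = 0.59 (permutation p = 0.0470, adjusted 0.176), rho = 0.52 (permutation p = 0.0850, adjusted 0.334), r = 0.76 without the 2 farthest libraries and 0.21 with the age means removed. Fabp4 had 49.8 to 127 CPM in heart, Cidea 17.4 to 25.6 and Pparg 7.55 to 14.6. Adipoq, Plin1, Lep, Retn, Cidec and Ucp1 were each at most 0.288 CPM there, so in heart the list is no clear measure of fat cells. The part of these markers in the level of Car3 was not tested in either tissue.

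The 9 tested kidney members, Car3 among them, gave 0 calls at each age comparison by edgeR, against 0.0567% of 17649 genes between 12 and 8 weeks, 0.929% between 10 and 8 and 0.482% between 12 and 10. At an unadjusted p under 0.05 there were 1, 3 and 2 members, beside 2059, 2917 and 2894 of the 17649 genes. By limma-voom none was called, while DESeq2 called Car8 and Car4 between 12 and 10 weeks alone. Car2 and Car12, the most abundant by CPM, were close to level. Car2 had 264 ± 7.65, 264 ± 20.3 and 258 ± 20.5 CPM at 8, 10 and 12 weeks (SD, n = 4), and its 12-against-8-week difference had a 95% interval of -0.16 to 0.10. Car12 had 229 ± 18.4, 217 ± 9.86 and 223 ± 14.4 CPM, with an interval of -0.16 to 0.10. These were the narrowest intervals among the members in any tissue.

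Car14, Car4 and Car8 were the kidney members at an unadjusted p under 0.05. Car14 had 102 ± 13.3 CPM at 8 weeks, 71.2 ± 19.8 at 10 and 74.7 ± 15.3 at 12 (SD, n = 4), with differences from 8 weeks of -0.50 (edgeR adjusted p = 0.163) and -0.45 (edgeR adjusted p = 0.348). Without the kidney libraries with Ucp1 above 1 CPM, left out after the values were seen, the 10-week difference was -0.015 (edgeR adjusted p = 0.988), a fit that keeps only replicate 2 at 10 weeks, with 99.7 CPM, and takes it to vary like the other groups. Car4 was lowest at 10 weeks, at 84.7 to 99.8 CPM against 102 to 137 at 12 weeks, a step of 0.35 between groups that did not overlap (SE 0.098, edgeR adjusted p = 0.108, where 9.13% of genes did not overlap). Car8 was highest at 10 weeks, at 10.4 ± 3.42 CPM against 6.51 ± 0.822 and 5.996 ± 1.99, with steps of 0.70 (edgeR adjusted p = 0.148) and -0.80 (edgeR adjusted p = 0.113).

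In heart no member passed between 12 and 8 weeks, where 4.56% of genes did. The edgeR count was 0 of 6 members, as was that of DESeq2 and of limma-voom, and 1 member, Car4, had an unadjusted p under 0.05. Car4 had 30.2, 33.7, 32.7 and 38.0 CPM in the 8-week replicates 1 to 4. At 10 weeks it had 19.5, 26.5, 17.3 and 23.5 CPM, all below the 8-week libraries. At 12 weeks it had 23.9, 17.6, 21.4 and 36.01 CPM, the last of these, replicate 4, inside the 8-week range.

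The Car4 difference from 8 weeks was -0.64 at 10 weeks (SE 0.17, edgeR adjusted p = 0.0854) and -0.45 at 12 weeks (SE 0.17, edgeR adjusted p = 0.122). The 10-week difference passed in 5 of the 9 alternative settings, and limma-voom did not call it. With each of the 12 heart libraries left out in turn it passed in only 2 fits (edgeR adjusted p from 0.0227 to 0.241). Among the settings where it passed, DESeq2 gave an adjusted p of 0.0202. In edgeR it was 0.0363 with the replicate block (no known pairing), 0.0327 in a fit of the 2 ages alone and 2.06e-07 with no filter on low counts. Over all genes the settings just named called 366, 232, 185 and 798, against 161 in the main fit. Both Car4 differences were larger without the libraries with liver transcripts, a setting chosen after the values were seen. Without the 3 libraries with Alb above 1 CPM, among them the 12-week replicate 4, the Car4 difference was -0.88 at 10 weeks (edgeR adjusted p = 0.00389) and -0.69 at 12 weeks (edgeR adjusted p = 0.00425), both past the threshold. That setting keeps only replicates 1 and 3 at 10 weeks. It called 215 genes higher and 130 lower of 15259 at 10 weeks, and 823 and 969 at 12 weeks. The main fit called 161 and 691 in all. Capillary endothelium is a known site of Car4 in heart, and the summed level of 8 endothelial markers had a median of 932 CPM at 8 weeks, 904 at 10 weeks and 961 at 12 weeks. Between 12 and 8 weeks 1 of the 8, Tie1, passed, with -0.26 (edgeR adjusted p = 0.0362), and 4 of 8 were above 0, with a median of -0.03. Car4 and the endothelial markers had r = 0.52 (permutation p = 0.0826, adjusted over 15 relations 0.195) over the 12 heart libraries. Their part in the Car4 values was not tested. Car14, the leading member in heart, had 103 ± 11.7, 94.5 ± 16.1 and 108 ± 23.9 CPM at 8, 10 and 12 weeks (SD, n = 4), and its ages overlapped throughout.

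**Figure D5:**
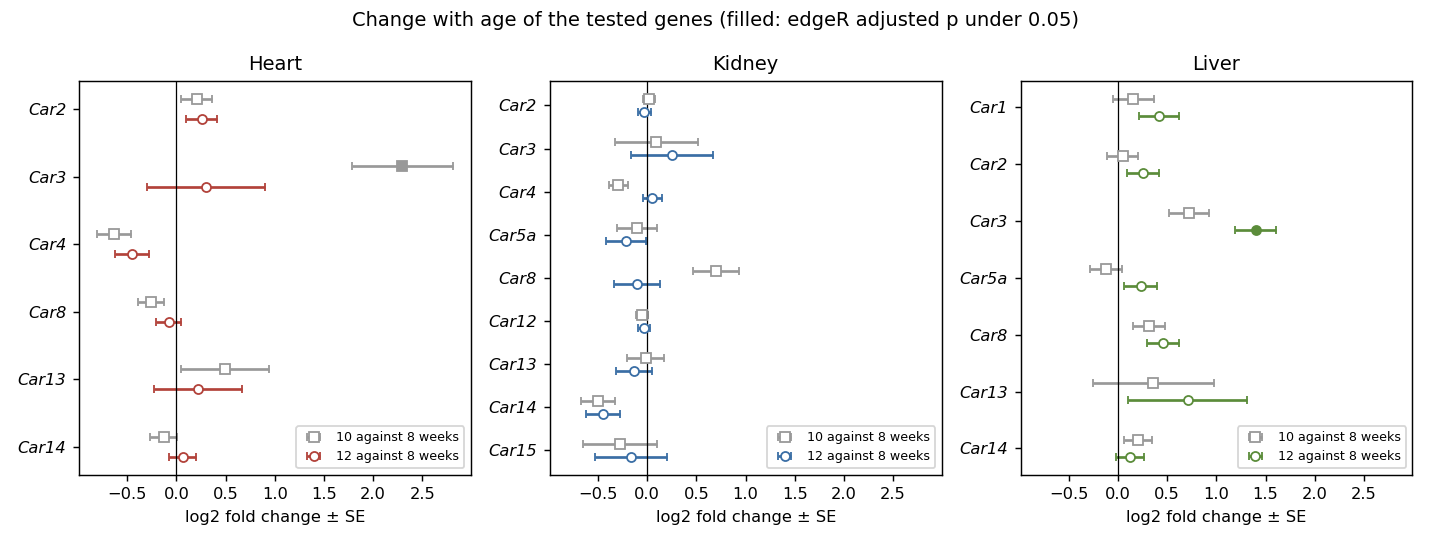
Difference of 10 weeks (squares) and 12 weeks (circles) from 8 weeks for each tested member in each tissue, on the log2 scale with its SE from edgeR and filled where the adjusted p was under 0.05. Car3 in liver at 12 weeks (1.40) and in heart at 10 weeks (2.30) are the filled points, and Car2 and Car12 in kidney have the smallest SE.

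Whether the change from 8 to 12 weeks differed between tissues was tested for each member with an interaction term in the 36-library fit. By edgeR 0 members passed in each of the 3 contrasts, against 0.112% of genes for kidney minus heart, 4.16% for liver minus heart and 0.304% for kidney minus liver. Car1 and Car5a had 3 and 2 counts in all in heart, Car4 had 2 in liver and Car12 had 0 in both. Their change with age in those tissues could not be estimated, so their lack of a call in contrasts with them carries no information. At an unadjusted p under 0.05 there were 2, 0 and 3 members in that order, with no count over all genes at that level to set beside them. DESeq2 called none. For Car3 the change in kidney minus that in liver was -1.16 (SE 0.46, edgeR adjusted p = 0.285). Thus the difference in liver passed and that in kidney did not, but the data do not show that they differed from each other.

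The transporters that carry the reaction's products were examined beside the enzymes. Of 13 bicarbonate transporter genes, 9, 11 and 7 could be tested in heart, kidney and liver, and Slc4a4, the sodium bicarbonate cotransporter of proximal tubule and heart, was the only gene past the threshold at any age by edgeR, while DESeq2 also called Slc4a7 in kidney between 12 and 10 weeks. It was higher in heart at 12 than at 8 weeks by 0.49 (SE 0.13, edgeR adjusted p = 0.0408, where 4.56% of genes passed) and lower in kidney at 10 than at 8 weeks, with a difference of -0.31 (SE 0.065, edgeR adjusted p = 0.0428, where 0.929% passed). Of 16 proton transporter genes, 8, 15 and 7 were tested and 0 passed by edgeR in any age comparison, with 0 to 4 at an unadjusted p under 0.05. DESeq2 called Slc9a2 in heart between 12 and 8 weeks and limma-voom called none. Between kidney and heart, 13 of 15 proton transporters tested and 8 of 12 bicarbonate transporters were higher in kidney, with median log2 differences of 4.19 and 1.25 against 0.15 for all genes. Of all genes 47.1% passed as higher in kidney. The proton list includes Atp6v1g3 and Atp12a, at 0 in every heart library, and shares Atp6v1b1 and Atp6v1g3 with the intercalated cell list. Its kidney excess thus follows in part from the choice of genes.

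Of the 6 other carbonic anhydrase genes, 3, 4 and 3 could be tested in heart, kidney and liver. They gave 0 calls at any age by edgeR, against 0.0204% to 4.56% of genes, with 0 to 2 at an unadjusted p under 0.05. DESeq2 called Car9 in kidney between 12 and 10 weeks and Car5b in liver between 12 and 8 weeks. By edgeR these differences were 0.73 (SE 0.18, edgeR adjusted p = 0.0817) and 0.58 (SE 0.16, edgeR adjusted p = 0.133). Car9 ranged from 3.64 to 11.3 CPM in kidney. Car6 and Car10 had at most 8 counts in any tissue.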

How the data were processed

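Poly(A) RNA from 36 mouse heart, kidney and liver samples was sequenced as read pairs. The authors deposited raw read counts per gene, which per the labels came from FastQC 0.11.9, cutadapt 4.2 and STAR 2.7.11b on GRCm39. The unstranded counts were used, because 49.8 to 50.2% of stranded reads fell on the first strand. A read overlapping several genes is not counted, so overlapped genes read low. Symbols, lengths and sequences came from a GENCODE annotation of the same build, in which 71 gene identifiers had no entry. All 36 libraries are grouped by tissue and age from the labels, and with 4 libraries per group only the spread between these mice is measured.

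Levels are CPM with TMM effective library sizes. The main test was the quasi-likelihood F test of edgeR 4.0.16 (R 4.3.3) on genes with a mean count of at least 10 in a group and counts in at least 2 samples, fitted per tissue for age and over 36 libraries for tissue and interaction, two-sided, with Benjamini-Hochberg adjustment over all genes, a threshold of 0.05 and no minimum fold. SE is the log2 difference over the square root of F. DESeq2 1.42.0, limma-voom (limma 3.58.1), other filters and scalings, a replicate block and leaving out each library were alternatives, and the fits were tested on simulated data. Relations used 100000 permutations in scipy 1.17.1. The named genes are all members, list genes past the threshold, and for each member the 3 genes most correlated with it in its highest tissue among genes with a mean of at least 1 CPM. Genes were likewise named from lists of other carbonic anhydrases, bicarbonate and proton transporters, tissue-defining genes, cell type markers and male growth hormone pattern liver genes. The members and lists were chosen with earlier results of these data known.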

Additional observations from a re-analysis of the deposited data

Results flagged for a closer look

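In 72 groups of 4 libraries with a measurable member, 7 held a library whose gap to the nearest of the others took a larger share of the range of the group than Dixon's 95% critical value. Chance gives about 1 in 20 groups. Of these, 3 lay in the same library, the 10-week kidney replicate 1, where Car2 was 233 CPM against 272 to 276 in the other 3, Car3 was 19.3 CPM against 7.84 to 9.15 and Car13 was 2.51 CPM against 1.79 to 1.89. This is also a library with high adipocyte markers (30.2 CPM), whose part in these values was not tested. The 8-week kidney replicate 4 had Car4 at 98.6 CPM against 118 to 122. The 10-week liver replicate 2 had Car5a at 29.5 CPM against 49.4 to 52.7. The 8-week liver replicate 4 had Car13 at 0.122 CPM against 0.452 to 0.488, a difference of few counts. The 8-week heart replicate 1 had Car14 at 85.9 CPM against 107 to 111.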

How the results depend on the processing

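No called value changed direction under the alternatives run. The counts of members past the threshold between tissues stayed at 8, 8 and 10 under other scalings, DESeq2 and the replicate block, and at 8 to 9, 7 to 8 and 10 when each library number was left out in turn. Within tissues the counts rested on few values near the threshold, and the cause was not tested. In heart between 12 and 8 weeks the count of 0 became 1 (Car4) with no filter on low counts and without the 3 libraries with Alb above 1 CPM, a setting chosen after seeing the data. Between 10 and 8 weeks in heart the count of 1 became 2 (Car3 and Car4) with DESeq2, with no filter, with the replicate block and without the same 3 libraries. Between 12 and 10 weeks in heart 0 became 1 (Car3) with no filter. In kidney 0 became 1 (Car14) between 12 and 8 weeks and 3 (Car14, Car8 and Car4) between 10 and 8 weeks with no filter, and 2 (Car8 and Car4) between 12 and 10 weeks with no filter or DESeq2, while it stayed at 0 in all 3 without the kidney libraries with Ucp1 above 1 CPM, a setting chosen after seeing the data. In liver 0 became 1 (Car3) between 10 and 8 weeks and between 12 and 10 weeks, with no filter or DESeq2.

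With each library left out in turn the count ran from 0 to 1 in heart between 12 and 8 weeks (1 without the 12-week replicate 4), from 0 to 2 in heart between 10 and 8 weeks, from 0 to 1 in kidney between 10 and 8 weeks (Car14 without the 10-week replicate 2) and between 12 and 10 weeks (Car8 without the 12-week replicate 1), and from 0 to 1 in liver between 12 and 8 weeks, where Car3 was lost without the 8-week replicate 2 or the 12-week replicates 1, 2 or 3. A lone weak call in liver against heart, Car15, was lost in 4 of 12 such fits.

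The replicate block changed no other count of members. Replicate numbers are no known pairing. Deviations of same-numbered libraries in different tissues correlated at -0.017 to 0.269, and libraries of kidney and liver correlated best with their own number in 12 of 12, heart and kidney in 10 and heart and liver in 7, a hint from the data and not from the design.

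Counts over all genes, which set the background shares, moved more. In heart between 12 and 8, 10 and 8, and 12 and 10 weeks edgeR called 691, 161 and 6 genes, DESeq2 1245, 366 and 54 and the fit with no filter 1133, 798 and 308. In kidney these were 10, 164 and 85, then 130, 664 and 657, then 513, 1005 and 938. In liver they were 35, 3 and 8, then 423, 356 and 486, then 330, 350 and 271. Leaving out 1 library gave 172 to 1850 genes in heart between 12 and 8 weeks and 2 to 84 in liver. The replicate block gave 15 genes in heart between 12 and 10 weeks, 4 in kidney between 12 and 8 weeks, 5 and 4 in liver between 10 and 8 and 12 and 10 weeks, and 105 against 60 for kidney minus liver. For the interactions of kidney with heart, liver with heart and kidney with liver edgeR called 22, 821 and 60 genes and DESeq2 218, 1340 and 292. Summed stranded counts gave 257 and 178 genes in kidney between 10 and 8 and 12 and 10 weeks and 15 in liver between 10 and 8 weeks, limma-voom 107 in heart between 10 and 8 weeks, and fits of 2 ages alone 24 in kidney between 12 and 10 weeks and 23, 7 and 33 in liver.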

Other observations

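For each member the genes with the most similar pattern over the 12 libraries of its highest tissue were ranked by Pearson's r of log2 CPM, as a description over libraries that share tissue and ages. Car3 in liver was most like Erbb4 (r = 0.94), Slc49a4 (0.93) and Pebp1 (0.93) of 11488 genes ranked. Car8 in liver was nearest to Crot (r = 0.94), Sgk2 (0.94) and Stom (0.93), Car5a to Tmem143 (0.93), Mpst (0.92) and Rnpepl1 (0.91), and Car1 to Lactb2 (0.94), Lactb (0.93) and Fam89a (0.92). In heart Car14 followed Cipc (r = 0.97), Epas1 (0.96) and Dgat2 (0.93) of 11926 genes. Epas1 encodes a hypoxia-inducible factor and Dgat2 an enzyme of triglyceride synthesis.

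In kidney the closest genes to Car2 were Blnk (r = 0.85), Pkn2 (0.85) and Rdh11 (0.84) of 12409 genes, those to Car12 were Aspdh (0.85), Sft2d1 (0.85) and Phyhipl (0.85), and those to Car4 were Nfic (0.94), Arfgap3 (0.90) and Rmdn1 (0.89). Car13 was nearest to Ckap5 (r = 0.93), Zfp608 (0.90) and Parva (0.84), and Car15, at under 0.65 CPM, to Mrm1 (0.86), Pfdn6 (0.83) and Tesk1 (0.83).

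Car14 and the proximal tubule markers had r = 0.62 over the 12 kidney libraries (permutation p = 0.0245, adjusted over 15 relations 0.176), rho = 0.66 (permutation p = 0.0239, adjusted 0.180) and, without the 2 farthest libraries, r = 0.77. With the age means removed r was 0.55 (permutation p = 0.0645). Car2 and the intercalated cell markers had r = 0.14 (permutation p = 0.656), and Car12 and the principal cell markers r = 0.0050 (permutation p = 0.988). The principal cell gene Aqp2, the water channel of the collecting duct, had a difference of -1.10 between 12 and 10 weeks (SE 0.19, edgeR adjusted p = 0.0239), and Gata3 was higher at 10 than at 8 weeks by 0.46 (edgeR adjusted p = 0.0414), while Car12 passed in neither. In heart Lrp2, a proximal tubule gene, was higher at 10 than at 8 weeks by 4.10 (SE 0.92, edgeR adjusted p = 0.0415). Fabp4, taken from the adipocyte list, had a difference of -0.59 there between 12 and 8 weeks (edgeR adjusted p = 0.0247). Adipoq and Plin1 were at most 0.164 and 0.246 CPM in heart. Car1 in liver and the red cell markers had r = -0.029 (permutation p = 0.930).

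Among the genes that define the tissues, Myl2 and Ryr2, both of the contracting heart cell, were higher in heart at 12 than at 8 weeks, by 0.41 (SE 0.096, edgeR adjusted p = 0.0291) and 0.48 (SE 0.098, edgeR adjusted p = 0.0156). Kap, a kidney transcript with a median of 14936 CPM in kidney, was at 0 to 6.10 CPM in heart libraries and passed there between 12 and 8 weeks (edgeR adjusted p = 0.0173). The marker lists of red cells, skeletal muscle, intercalated cells, kidney loop, periportal hepatocytes and the liver-defining genes gave 0 calls by edgeR within any tissue at any age, with at most 5 genes of a list at an unadjusted p under 0.05.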
